A study of Drosophila melanogaster with 12 samples.

Results

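INE-1 insertions are the copies of one short transposable element of the fruit fly Drosophila melanogaster, and each annotated copy had a row of its own in the count table. The rows were chosen by name: 2235 of the 23793 rows in the table carried an INE-1 name, and a further 3641 rows were insertions of other transposable elements. An INE-1 row was tested for differences when its raw counts summed to at least 60 over the 12 libraries. This held for 226 INE-1 rows, or 10.1% of them, against 31.3% of the other transposable element insertions.

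INE-1 is a non-autonomous DNA element, related to the Helitrons, which carries no gene for its own movement. It spread through the genome long ago, most copies are now old and fixed, and they are dense near the centromeres and on the small, largely heterochromatic chromosome 4. Reads over such a copy can come from a transcript that starts in the element or from a longer transcript of a gene around or next to it, and read counts alone do not separate these sources.

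The libraries were made from poly(A) RNA of heads of 3-day-old males, with 50 heads in each library and 3 libraries in each of 4 groups. All flies expressed a hairpin RNA under nSyb, a driver active in neurons throughout the nervous system, so the other cells of the head were not targeted. The group labelled dYEATS2-IR carried a hairpin against dYEATS2 (gene D12), and the group labelled dENL/AF9-IR one against dENL/AF9 (gene ear). Both genes encode YEATS-domain proteins, a family that reads acylated histones. The control hairpins were against Luciferase in the group labelled NTC IR-2 and against mCherry in the group labelled NTC IR-1. The library titles of the dENL/AF9-IR and NTC IR-2 groups also carry the word young. The series text names each knockdown after one control, and in that order dYEATS2-IR was compared with NTC IR-1 and dENL/AF9-IR with NTC IR-2; no label states this pairing.

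Several facts bear on the group names. The 12 libraries appear with exchanged group names in the normalized table that was also deposited, and the names of the raw count table are used throughout. For libraries 1 and 2 of NTC IR-2, the labels also give column names that are not those of the libraries (an NTC IR-1 column for library 1), and both were taken by library name. The targeted gene D12 had 309, 275 and 318 counts in the dYEATS2-IR libraries and 366, 444 and 382 counts in the NTC IR-1 libraries, a log2 fold change of -0.03 (edgeR quasi-likelihood test, adjusted p = 0.922). The gene ear had 2298, 2056 and 1653 counts in the dENL/AF9-IR libraries and 1020, 1628 and 2087 counts in the NTC IR-2 libraries, a log2 fold change of -0.05 (adjusted p = 1). No lowering of either target was detected in whole heads. The 3 yolk protein genes Yp1, Yp2 and Yp3, made mainly by the female fat body, summed to 11.8 to 36.1 CPM (counts scaled to a common library total) in the dYEATS2-IR, dENL/AF9-IR and NTC IR-2 libraries, against 1250 to 1880 CPM in the NTC IR-1 libraries, although all flies are labelled male. Total counts ran between 30298251 and 54132559 per library, and 3 counts in a library corresponded to 0.0566 to 0.103 CPM.

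Where a copy lies went with whether it had reads. Of the 2235 insertions, 1130 had at least 1 count in some library and 1105 had none in any library. Insertions within an intron of a gene on the same strand supplied 166 of the 226 tested rows, and 25.6% of such insertions reached the count sum. In introns of a gene on the other strand only 13 of 460 did (2.83%), and between genes 32 of 979 (3.27%). Insertions overlapping an annotated exon were detected often (116 of 147) but reached the count sum in 15 cases (10.2%).

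Chromosome 4 held 344 of the insertions (15.4%) and 107 of the tested rows (47.3%). There, 77 of 149 same-strand intronic insertions reached the count sum (51.7%), against 89 of 500 on the other arms (17.8%). The order of the classes by strand was alike on both: in introns of a gene on the other strand, 11 of 90 insertions reached it on chromosome 4 (12.2%) and 2 of 370 on the other arms (0.541%). Among the other arms, the share of insertions tested was highest on 2R (47 of 500) and lowest on X (12 of 361, or 3.32%).

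**Figure D1:**
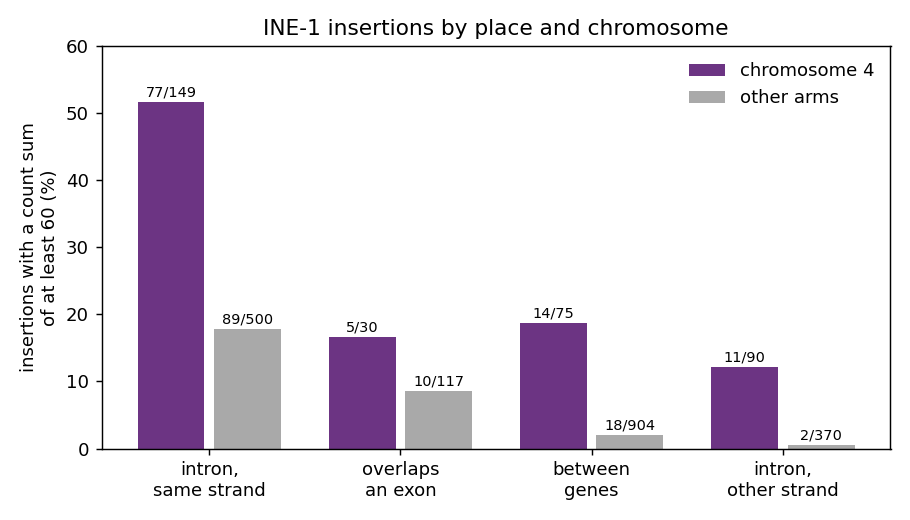
The bars give the percentage of INE-1 insertions with a raw count sum of at least 60, by place in the annotation, for chromosome 4 and for the other arms; the fractions above the bars are insertions tested over insertions present. Same-strand intronic insertions have the highest bar in both sets, 51.7% on chromosome 4 and 17.8% elsewhere.

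Longer copies were tested more often. Of insertions of up to 50 bases 3.59% reached the count sum, and of those over 800 bases 28.6%, and the median length was 272 bases for the tested insertions against 146 bases for all. The longest tested copy was INE-1{}2831 (4672 bases, chromosome 2R, 4924644 to 4929315), in an intron of Ir41a, an ionotropic receptor gene. The span of INE-1{}2831 overlaps an annotated copy of the element Doc, so its length may not be that of INE-1 alone. The shortest was INE-1{}6116 (43 bases, chromosome 4, 565178 to 565220), in an intron of Pur-alpha, which encodes a nucleic acid binding protein. Coordinates here are those of the BDGP6.54 annotation.

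Insertions between genes that reached the count sum lay mostly near a gene. Of the 32 tested insertions between genes, 26 were within 1000 bases of the nearest gene, and 18 were downstream of it on the same strand. Within 1000 bases of a gene, 15 of 129 insertions downstream on the same strand reached the count sum (11.6%), against 1 of 99 upstream on the same strand (1.01%). On the other strand, 5 of 137 downstream insertions and 5 of 96 upstream ones did. The libraries were made with a stranded kit, but the strand setting of the counting is not given in the sources used here, so reads of an insertion and of a transcript on the opposite strand cannot be told apart with certainty.

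The 194 tested insertions within genes lay in 111 host genes, and 43 hosts held more than 1. CaMKII (a calcium and calmodulin dependent kinase), Cadps (a protein of dense-core vesicle release), Nipped-B (the cohesin loader) and nrm (neuromusculin, a cell adhesion protein) held 6 each. Insertions on the strand of a shared host may be read from its transcript, so they are not taken as independent of each other. Some lie on the other strand of their host, as INE-1{}3381 in CaMKII and INE-1{}3239 in nrm do.

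Most tested insertions had low levels. Their mean level over the 12 libraries ran between 0.121 and 31.2 CPM with a median of 0.346 CPM, against a median of 10.4 CPM over all 13110 rows tested, and 47 of them reached 1 CPM. Per kilobase of insertion, the mean level ran between 0.0832 and 55.0 CPM. A few copies carried much of the signal: the 2 most abundant rows held 22.8% of the summed INE-1 level and the 10 most abundant 43.1%. Same-strand intronic insertions held 68.2% of the summed level, insertions between genes 25.9%, exon-overlapping ones 3.8% and other-strand intronic ones 2.06%. Chromosome 4 held 65.1%.

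The row with the highest level was INE-1{}5364 (chromosome 4, 431771 to 435221, plus strand), a stretch of 3451 bases that begins 2 bases beyond the end of the long non-coding RNA gene lncRNA:CR44024. It overlaps annotated copies of the elements S and 1360, so its reads may be shared with those rows. It had 17.9, 27.1 and 20.5 CPM in the dYEATS2-IR libraries and 42.8, 46.5 and 36.0 CPM in the dENL/AF9-IR libraries. In the controls it had 44.6, 42.1 and 37.6 CPM in the NTC IR-2 libraries and 17.4, 20.5 and 21.1 CPM in the NTC IR-1 libraries. The dENL/AF9-IR and NTC IR-2 libraries were all above the dYEATS2-IR and NTC IR-1 libraries.

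The next was INE-1{}3385 (chromosome 4, 1042174 to 1042714, minus strand), in an intron of CaMKII on its strand, which per kilobase had the highest level of the tested rows, 55.0 CPM. It had 29.1, 31.4 and 24.6 CPM in the dYEATS2-IR libraries, 37.8, 31.7 and 38.0 CPM in the dENL/AF9-IR libraries, 20.3, 46.3 and 41.4 CPM in the NTC IR-2 libraries and 17.1, 18.1 and 21.4 CPM in the NTC IR-1 libraries. Library 1 of NTC IR-2 lay within the range of the NTC IR-1 libraries, while the other two NTC IR-2 libraries had the highest values of all 12. INE-1{}3388, 197 bases long and close by in the same gene, averaged 8.87 ± 2.11 CPM in dYEATS2-IR and 11.2 ± 0.432 CPM in dENL/AF9-IR (SD, n = 3 each). It had 6.1, 15.9 and 14.0 CPM in the NTC IR-2 libraries and 5.03, 5.53 and 7.46 CPM in the NTC IR-1 libraries.

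The other 8 of the 10 most abundant rows averaged between 4.64 and 9.52 CPM. INE-1{}5345 lies in an intron of PMCA, the plasma membrane calcium ATPase, INE-1{}3979 in an intron of Cadps and INE-1{}5918 in an intron of CaMKI, a further calmodulin dependent kinase. INE-1{}3345 lies in an intron of toy, a Pax6 gene of eye and brain development, and INE-1{}3227 in an intron of nrm. The span of INE-1{}3345 overlaps an annotated copy of the element R1A1, so its reads may be shared with that row. INE-1{}3974 lies 136 bases beyond the protein kinase gene Dyrk3 and INE-1{}3643 lies 100 bases beyond flip. Of these 10 rows, 8 are on chromosome 4; INE-1{}3227 is on 3L and INE-1{}3643 on 3R.

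Set against its host or nearest gene in the same libraries, the level of these rows was a small percentage for most. In the 4 groups, INE-1{}5345 had 1.3% to 1.5% of the level of PMCA, INE-1{}3385 had 3.02% to 4.47% of that of CaMKII and INE-1{}3974 had 4.04% to 4.12% of that of Dyrk3 (group means). INE-1{}5364 reached 23.5% to 38.6% of lncRNA:CR44024. INE-1{}3643 differed most in this share, at 57.8 ± 2.56% of flip in dYEATS2-IR, 30.3 ± 4.45% in dENL/AF9-IR, 20.1 ± 12.1% in NTC IR-2 and 54.3 ± 3.94% in NTC IR-1 (SD, n = 3 each). These are ratios of counts and are not corrected for length.

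Summed over all 2235 rows, INE-1 counts came to 211.1, 266.4 and 227.8 CPM in the dYEATS2-IR libraries and 323.9, 319.7 and 302.0 CPM in the dENL/AF9-IR libraries. The NTC IR-2 libraries had 236.5, 346.3 and 331.8 CPM and the NTC IR-1 libraries 192.8, 211.0 and 243.3 CPM. The 3 dENL/AF9-IR libraries were above every dYEATS2-IR and NTC IR-1 library, and library 1 of NTC IR-2 lay among the lower ones. Group means were 235 ± 28.4 CPM for dYEATS2-IR and 315 ± 11.6 CPM for dENL/AF9-IR, with 305 ± 59.6 CPM for NTC IR-2 and 216 ± 25.6 CPM for NTC IR-1 (SD, n = 3 each). On chromosome 4 alone the means were 150 ± 18.1, 207 ± 7.19, 204 ± 37.6 and 135 ± 15.9 CPM in the same order of groups. No test was made on these sums.

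**Figure D2:**
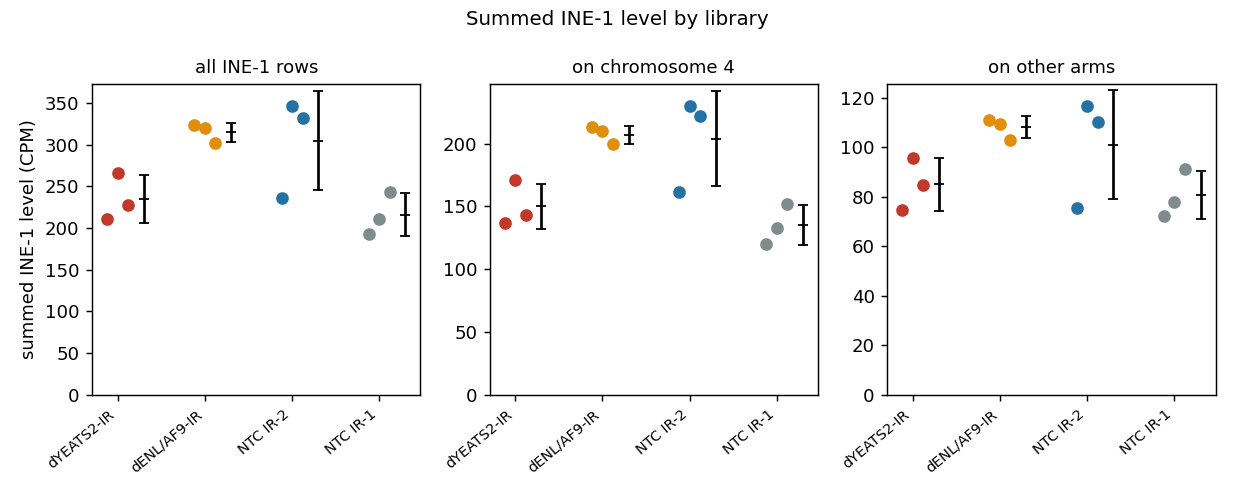
Points give the summed INE-1 level of each library in CPM for all insertions, those on chromosome 4 and those on other arms; the bars give the mean and SD of the 3 libraries of each group. The dENL/AF9-IR libraries sit together between 302.0 and 323.9 CPM for all rows, while the NTC IR-2 libraries spread between 236.5 and 346.3 CPM.

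The comparison of dYEATS2-IR with NTC IR-1 asks whether the dYEATS2 hairpin altered these transcripts. No INE-1 insertion of the 226 tested was called at an adjusted p below 0.05 by edgeR, against 4.46% of all rows tested. Of the insertions of other transposable elements, 129 of 1139 were called (11.3%), 31 higher and 98 lower in dYEATS2-IR. At an unadjusted p below 0.05 there were 19 INE-1 insertions (8.41%, against 21.1% of all rows), and DESeq2 called 3. There were 3 calls without library 3 of NTC IR-1, 4 without library 1 of NTC IR-2 and 1 without its library 2 or 3. The shares of all rows given here belong to the main edgeR fit, and none was computed for DESeq2 or the fits without a library. The median log2 fold change of the tested INE-1 insertions was 0.09, against -0.02 over all rows. Errors were wide: the median standard error of the log2 fold change was 0.556 for INE-1 rows and 0.207 for all rows, so changes of modest size were not detectable for most copies.

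The insertions with the smallest p in this comparison had few counts. INE-1{}4857 (177 bases, chromosome 4, 219598 to 219774), in an intron of CG31999 on the other strand, had 13, 22 and 14 counts in the dYEATS2-IR libraries and 0 in all 3 NTC IR-1 libraries. That is at least 7.06-fold higher in dYEATS2-IR, with NTC IR-1 set to a floor of 3 counts per library, but its adjusted p was 0.0523. The dENL/AF9-IR libraries had 21, 22 and 16 counts of it and the NTC IR-2 libraries 0, 0 and 20 counts. Among the control libraries only library 3 of NTC IR-2 thus had counts. The insertion was not called between the controls (edgeR, adjusted p = 0.0699).

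INE-1{}3358 (chromosome 3L, 23088679 to 23088868), 4322 bases beyond the ribosomal protein gene RpL10, had 3, 0 and 2 counts in the dYEATS2-IR libraries and 13, 13 and 15 counts in the NTC IR-1 libraries. Its log2 fold change was -2.6 ± 0.687 (SE, adjusted p = 0.0556). INE-1{}3381, in an intron of CaMKII on the other strand, had 0, 2 and 0 counts in the dYEATS2-IR libraries and 10, 32 and 20 counts in the NTC IR-1 libraries, with a log2 fold change of -4.33 ± 1.28 (adjusted p = 0.0819). In both, the groups did not overlap, but INE-1{}3381 reached the count sum only through NTC IR-1. With NTC IR-2 as the control, 7 insertions were called (8.79% of all rows were), 1 of them higher in dYEATS2-IR (3.69% of all rows) and 6 lower (5.1% of all rows).

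The comparison of dENL/AF9-IR with NTC IR-2 asks the same of the dENL/AF9 hairpin. No INE-1 insertion was called by edgeR, against 0% of all rows, and DESeq2 called 0. An unadjusted p below 0.05 was found for 8 of 226 (3.54%, against 5.29% of all rows). The median log2 fold change was 0.02, with 117 of 226 insertions fitted above 0. With NTC IR-1 as the control, 20 were called (14.8% of all rows were), 18 of them higher in dENL/AF9-IR (8.25% of all rows) and 2 lower (6.51% of all rows).

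The smallest p belonged to INE-1{}4495 (chromosome 3L, 17835839 to 17836181), in an intron of Grd on the other strand; Grd encodes a subunit of the family of GABA and glycine gated channels. It had 10, 18 and 23 counts in the dENL/AF9-IR libraries and 2, 3 and 4 counts in the NTC IR-2 libraries, a log2 fold change of 2.11 ± 0.526 (SE, adjusted p = 0.563). INE-1{}3410, in an intron of the fat body lipoprotein gene apolpp, had 15, 25 and 64 counts in the dENL/AF9-IR libraries and 4, 10 and 2 counts in the NTC IR-2 libraries (log2 fold change 2.24 ± 0.762, adjusted p = 0.708). Its host apolpp averaged 530 ± 327 CPM in dENL/AF9-IR and 301 ± 38.9 CPM in NTC IR-2 (SD, n = 3 each), a difference within the spread of the libraries.

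A test of the difference between both knockdown effects called no INE-1 insertion by edgeR, against 0.9% of all rows, and DESeq2 made 1 call. An unadjusted p below 0.05 was found for 9 (3.98%, against 14.1% of all rows). The smallest adjusted p was 0.123, for INE-1{}3410. A test for any difference among the 4 groups called 11 INE-1 insertions (4.87%), against 18.8% of all rows. Besides rows called between the controls, these included a few with low counts. INE-1{}3965 (chromosome 4, 1184916 to 1185212), 556 bases upstream of CG33521 on the other strand, had 1, 0 and 0 counts in the dYEATS2-IR libraries and 10, 7 and 10 counts in the dENL/AF9-IR libraries, against 6, 9 and 11 counts in NTC IR-2 and 2, 3 and 4 counts in NTC IR-1. INE-1{}3198 (chromosome 2R, 5329942 to 5330272), 387 bases beyond sxc, the O-GlcNAc transferase gene, had 4, 4 and 2 counts in dYEATS2-IR and 16, 12 and 11 counts in dENL/AF9-IR, against 2, 5 and 3 counts in NTC IR-2 and 1, 2 and 1 counts in NTC IR-1. Each had a count sum of 63, and without the counts of NTC IR-2 for INE-1{}3965 (37 left) or of dENL/AF9-IR for INE-1{}3198 (24 left) it would not have been tested, so these values are a description.

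The largest set of calls came from the comparison of both control hairpins. NTC IR-2 against NTC IR-1 gave 14 called INE-1 insertions of 226 (6.19%), against 18.6% of all rows. In NTC IR-2, 13 were higher (9.82% of all rows were) and 1 was lower (8.78% of all rows). The median log2 fold change of the tested insertions was 0.35, against -0.04 over all rows. Above 0 were fitted 166 of 226 (73.5%), against 46.9% of all rows. Over the 225 insertions whose host or nearest gene was tested, the median was 0.34 for the insertions and 0.35 for those genes. A gene (129 in all) was counted once for each of its insertions, and Pearson's r over the pairs was 0.16. In same-strand introns the medians of insertion and gene were 0.38 and 0.36, and between genes 0.49 and 0.07. They were 0.16 and 0.44 for exon-overlapping insertions and -0.11 and 0.32 in other-strand introns. The tested insertions of other transposable elements had a median of 0.01, with 148 of 1139 called. Of the 14 calls, 8 were among the 166 tested same-strand intronic insertions (4.82%) and 6 among the 32 between genes (18.8%). By place, 7 of 107 tested insertions were called on chromosome 4 and 7 of 119 on the other arms. The 14 calls became 3, 6 and 26 without library 1, 2 or 3 of NTC IR-1 and 23, 7 and 7 without library 1, 2 or 3 of NTC IR-2. They became 9 without library 1 of dYEATS2-IR or library 1 or 2 of dENL/AF9-IR. The share of all rows called was not computed for these fits. Neither control hairpin has a target in the fly, and the hairpin cannot be told apart from the other differences between these groups, the yolk protein level among them.

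**Figure D3:**
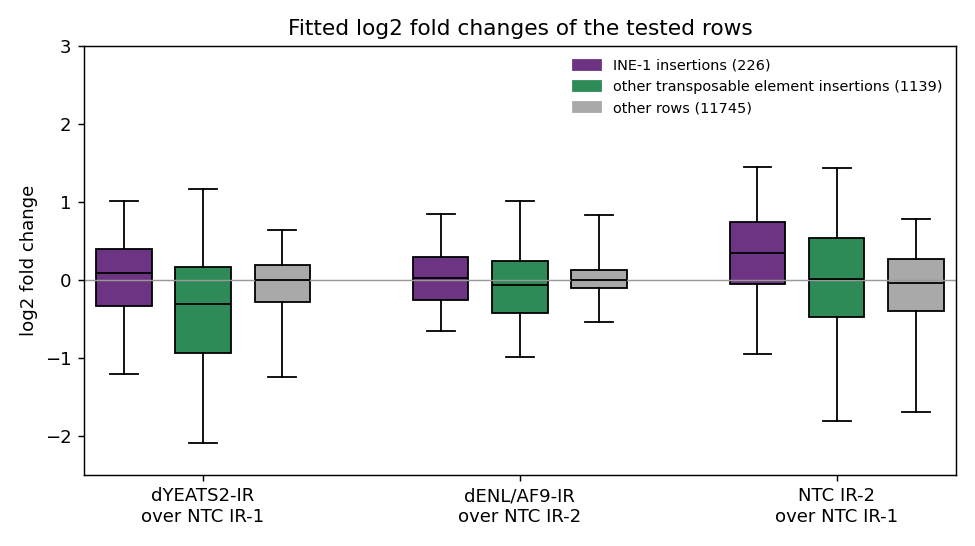
Boxes give the fitted log2 fold changes of tested rows in 3 comparisons, for INE-1 insertions, other transposable element insertions and all other rows; the line is the median, the box the quartiles and the whiskers the 5th and 95th percentiles. In NTC IR-2 over NTC IR-1 the INE-1 median is 0.35, against 0.01 for other transposable element insertions and -0.05 for the rows that are neither.

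The insertion that was lower was INE-1{}3643 (612 bases, chromosome 3R, 4268510 to 4269121, minus strand), downstream of flip on its strand. It had 56, 30 and 116 counts in the NTC IR-2 libraries and 316, 335 and 337 counts in the NTC IR-1 libraries. No value overlapped, and the log2 fold change was -2.12 ± 0.292 (SE, adjusted p = 0.00178). The dYEATS2-IR libraries, with 285, 262 and 304 counts, stood near NTC IR-1, and the dENL/AF9-IR libraries had 141, 131 and 177 counts. In CPM, dYEATS2-IR averaged 8.33 ± 0.216, dENL/AF9-IR 3.09 ± 0.797, NTC IR-2 1.71 ± 0.716 and NTC IR-1 7.52 ± 0.782 (SD, n = 3 each). The gene flip itself was lower by less, at 9.19 ± 2.0 CPM in NTC IR-2 and 13.8 ± 0.722 CPM in NTC IR-1, a log2 fold change of -0.59 (adjusted p = 0.0273).

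INE-1{}5364, the most abundant row, was higher in NTC IR-2, at 41.4 ± 3.55 CPM against 19.7 ± 2.0 CPM in NTC IR-1 (SD, n = 3 each; log2 fold change 1.07 ± 0.157 SE, adjusted p = 0.00227). Its neighbour lncRNA:CR44024 had a log2 fold change of 0.66 (adjusted p = 0.0264). INE-1{}3647 (chromosome 3R, 4278961 to 4279224), 449 bases beyond lncRNA:CR45597, had 47, 109 and 95 counts in the NTC IR-2 libraries and 27, 37 and 45 counts in the NTC IR-1 libraries. After scaling it was above NTC IR-1 in all 3 NTC IR-2 libraries, with a log2 fold change of 1.47 ± 0.307 (adjusted p = 0.00944), while lncRNA:CR45597 had one of -0.23 (adjusted p = 0.684). INE-1{}3643, INE-1{}5364 and INE-1{}3647 were the calls kept in all 12 fits that left out 1 library each; the other 11 were lost in 1 or more of them.

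INE-1{}3647 and INE-1{}3643 lie on the same strand of 3R on either side of flip, and they differed in opposite directions between the controls. In the dYEATS2-IR libraries INE-1{}3647 averaged 0.839 ± 0.123 CPM and in the dENL/AF9-IR libraries 1.75 ± 0.312 CPM, against 2.27 ± 0.917 CPM in NTC IR-2 and 0.814 ± 0.111 CPM in NTC IR-1 (SD, n = 3 each). For both insertions dYEATS2-IR stood near NTC IR-1.

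**Figure D4:**
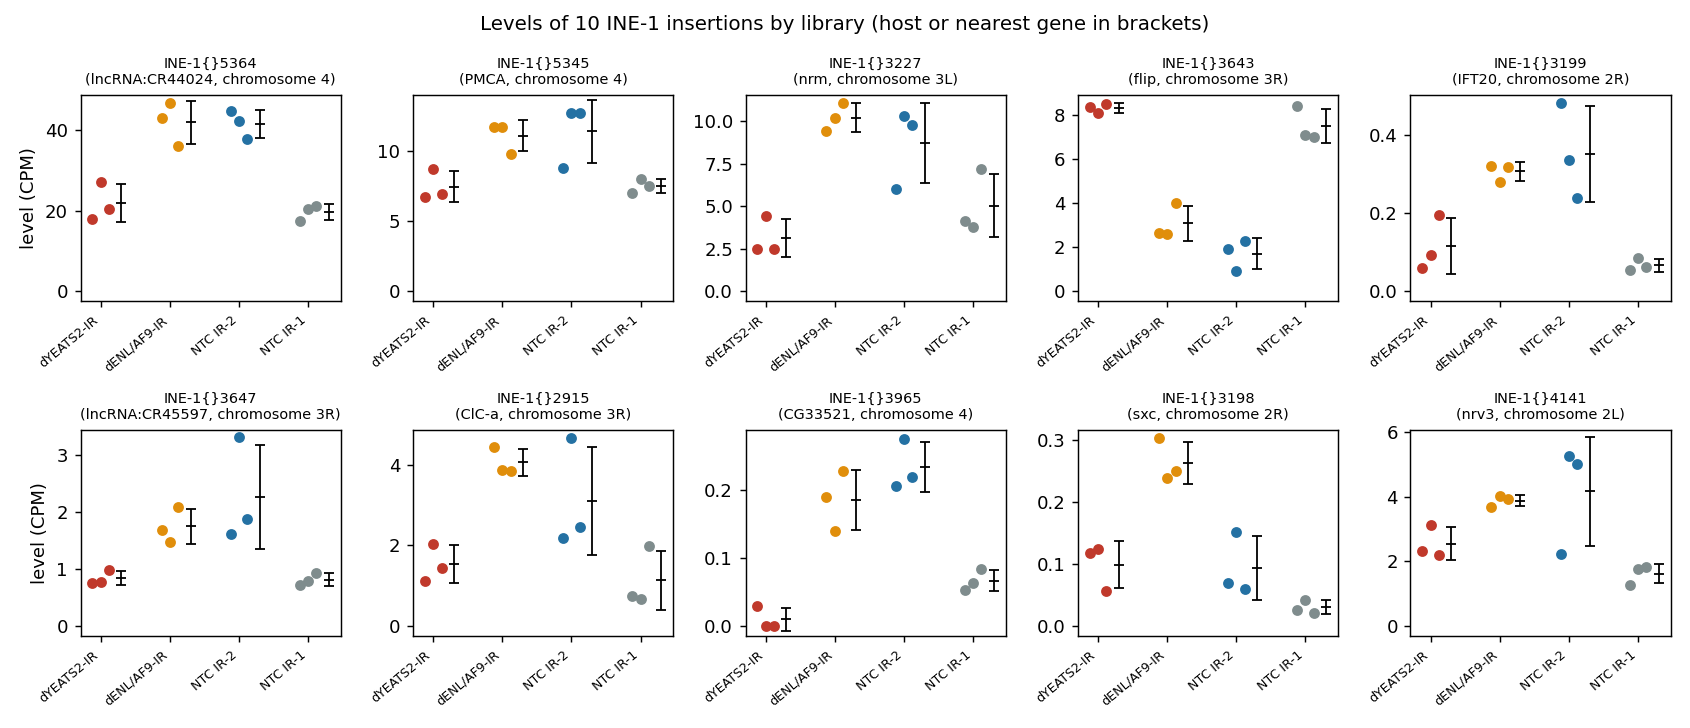
Points give the level in each library of the 10 INE-1 insertions with the smallest p across the 4 groups, as CPM on linear axes; the bars give the mean and SD of the 3 libraries of each group. INE-1{}3643 is the one with lower values in the dENL/AF9-IR and NTC IR-2 libraries than in the dYEATS2-IR and NTC IR-1 libraries.

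Of the 8 called intronic insertions, 6 lay in genes that were themselves called higher in NTC IR-2. INE-1{}4141 and INE-1{}4142 share an intronic stretch of nrv3, a beta subunit of the sodium pump of neurons. INE-1{}4141 had 2.23, 5.24 and 5.01 CPM in the NTC IR-2 libraries and 1.28, 1.76 and 1.81 CPM in the NTC IR-1 libraries, without overlap (log2 fold change 1.36 ± 0.304, adjusted p = 0.0124), and INE-1{}4142, 45 bases long, had a log2 fold change of 1.5 ± 0.423 (adjusted p = 0.032). The host nrv3 averaged 3620 ± 208 CPM in NTC IR-2 and 1660 ± 346 CPM in NTC IR-1 (SD, n = 3 each; log2 fold change 1.12, adjusted p = 0.00178).

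In CaMKII, INE-1{}3385 and INE-1{}3388 had log2 fold changes of 0.93 ± 0.243 (adjusted p = 0.0234) and 1.0 ± 0.307 (adjusted p = 0.044), beside 1.25 for the gene (adjusted p = 0.00178). Of the other 4 tested insertions in CaMKII, 3 on its strand had log2 fold changes of 0.92, 0.2 and 0.59, and none was called. The one on the other strand, INE-1{}3381, was fitted at -2.01 and had 0, 6 and 7 counts in the NTC IR-2 libraries and 10, 32 and 20 counts in the NTC IR-1 libraries (adjusted p = 0.185). INE-1{}5345 in PMCA had a log2 fold change of 0.6 ± 0.167 (adjusted p = 0.0291), beside 0.59 for PMCA (adjusted p = 0.00677). INE-1{}2915, in an intron of the chloride channel gene ClC-a, had one of 1.45 ± 0.435 (adjusted p = 0.0397), beside 0.65 for ClC-a (adjusted p = 0.0107).

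Other calls had hosts or neighbours that were not called. INE-1{}3199 (chromosome 2R, 5352305 to 5352814), 183 bases upstream of the intraflagellar transport gene IFT20 on the other strand, had 14, 11 and 12 counts in the NTC IR-2 libraries and 2, 4 and 3 counts in the NTC IR-1 libraries (log2 fold change 2.31 ± 0.553, adjusted p = 0.0161), while IFT20 itself was below the count sum. INE-1{}5440, in an intron of fuss, a gene of the Ski and Sno family, had 8, 10 and 13 counts in the NTC IR-2 libraries and 1, 2 and 6 counts in the NTC IR-1 libraries (log2 fold change 2.02 ± 0.606, adjusted p = 0.0398); it reached the count sum only through its counts in NTC IR-2. Leaving out 1 library at a time ended the calls of INE-1{}5440 and of INE-1{}2915 in 9 of 12 fits each. The remaining calls, chosen for mention after their values were seen, were INE-1{}3470 near CG9380 (log2 fold change 1.34), INE-1{}4848 beyond Crk (1.04) and INE-1{}5314 in dpr7 (0.79); none of these neighbours or hosts was called.

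Over the 166 same-strand intronic insertions, which lie in 97 genes, the log2 fold change of the insertion and that of its host in NTC IR-2 against NTC IR-1 correlated weakly (Pearson r = 0.32, Spearman rho = 0.19), and 118 had the same sign. Both values come from the same libraries and insertions may share a host, so this is a description. Where the host was called higher (63 insertions in 34 genes), 6 insertions were called higher and the median log2 fold change was 0.45. Where the host was not called (100 insertions), 2 were called and the median was 0.34. The 3 insertions whose host was called lower had a median of -1.22. Over the same insertions Pearson's r was 0.21 for dYEATS2-IR over NTC IR-1 and 0.4 for dENL/AF9-IR over NTC IR-2. For the 13 insertions in introns of a gene on the other strand it was -0.23 in NTC IR-2 against NTC IR-1.

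**Figure D5:**
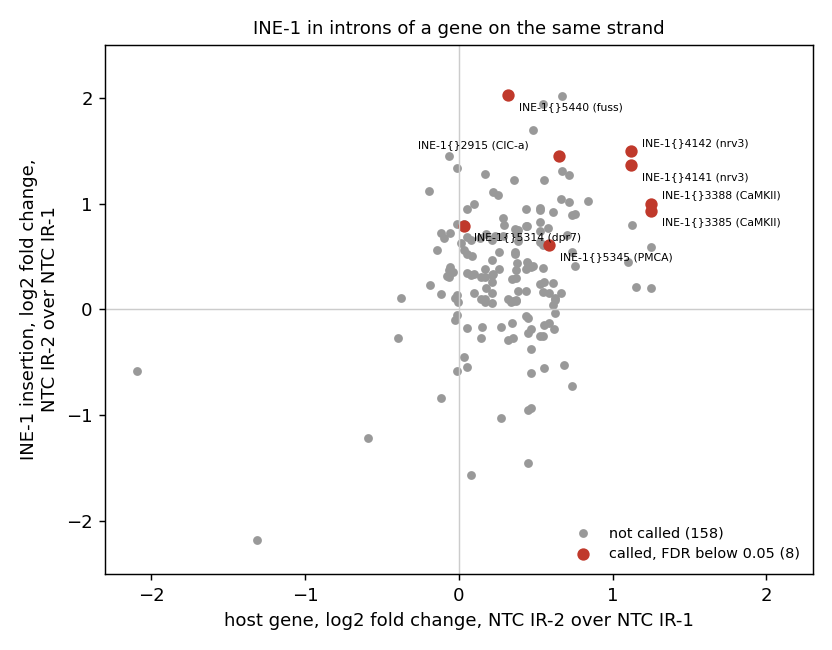
Each point is one of 166 INE-1 insertions in an intron of a gene on the same strand, with the log2 fold change of the host gene on the horizontal axis and that of the insertion on the vertical axis, NTC IR-2 over NTC IR-1; called insertions are labelled with their host. The 8 called insertions all lie where insertion and host are both fitted above 0.

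In genes with several tested insertions, the fitted values of the copies varied. Differences between copies were not tested, and the median standard error of an INE-1 row between the controls was 0.544. In Cadps, which was higher in NTC IR-2 (log2 fold change 0.53, adjusted p = 0.0356), the 6 insertions averaged between 0.617 and 6.52 CPM and had log2 fold changes between -0.25 and 0.94, with none called. In Nipped-B, whose log2 fold change was 0.05 (adjusted p = 0.854), the 6 insertions averaged between 0.122 and 0.588 CPM and ran between -0.55 and 0.94, again with none called. In nrm, INE-1{}3227 had 2.46, 4.42 and 2.5 CPM in the dYEATS2-IR libraries and 9.41, 10.2 and 11.1 CPM in the dENL/AF9-IR libraries, against 6.0, 10.3 and 9.75 CPM in NTC IR-2 and 4.13, 3.81 and 7.19 CPM in NTC IR-1. It was called in the test across the 4 groups (adjusted p = 0.0112), while the other 5 tested insertions in nrm averaged at most 1.62 CPM.

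Markers of some cell types also differed between the controls, and their part in the INE-1 values was not tested. For scale, 9.82% of all tested rows had a call upward in NTC IR-2 over NTC IR-1, and 8.78% a call downward. Of 8 neuronal genes, 6 were called higher in NTC IR-2, and their summed level was 6670 to 8490 CPM in NTC IR-2 and 4360 to 5220 CPM in NTC IR-1. Of 10 fat body and hemolymph genes, 7 were called lower and 1 higher in NTC IR-2, with sums of 404 to 618 CPM in NTC IR-2 and 2890 to 3300 CPM in NTC IR-1. The yolk protein genes are among these. In dYEATS2-IR the fat body sums were 473 to 610 CPM, near those of NTC IR-2. Against NTC IR-1, 4 fat body genes were called lower in dYEATS2-IR and 1 higher, where 284 and 301 of 13110 rows were. Of 10 photoreceptor genes, 3 were called higher in NTC IR-2 and none lower. In dYEATS2-IR over NTC IR-1, 6 of these 10 had a call upward, where 301 of 13110 rows did. Of 5 testis genes tested, 3 were called lower in NTC IR-2, with list sums of 5.52 to 8.36 CPM in NTC IR-2 and 8.25 to 12.9 CPM in NTC IR-1, and the testis gene bam was at 0 in every library. Of 6 glial genes, 2 were called lower in NTC IR-2, at sums of 996 to 1350 CPM in NTC IR-2 and 854 to 1180 CPM in NTC IR-1. Of 3 ovary genes tested, 1 was called higher in NTC IR-2, and of 5 muscle genes none was called. In whole heads, fewer cells of a type and less RNA per cell cannot be told apart.

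Genes that silence transposable elements or pack chromosome 4 were called at shares of the order of those of all rows. Of 39 symbols listed for small RNA pathways and heterochromatin proteins, 36 were tested. In dYEATS2-IR against NTC IR-1, 1 of the 36 was called, where 4.46% of all rows were: AGO3, a piRNA-binding Argonaute, was lower (log2 fold change -2.1, adjusted p = 0.0433), at 0.482 ± 0.268 CPM in dYEATS2-IR and 2.09 ± 1.06 CPM in NTC IR-1 (SD, n = 3 each). None was called for dENL/AF9-IR over NTC IR-2. Between the controls 5 of the 36 were called, where 18.6% of all rows were. In NTC IR-2, r2d2, AGO1 and ADD1 were called higher, with log2 fold changes of 0.35 to 0.52, and AGO3 and nxf2 lower, at -2.09 and -1.95. The median log2 fold change of the list was -0.05 in dYEATS2-IR against NTC IR-1, 0.01 for dENL/AF9-IR over NTC IR-2 and -0.05 between the controls, near the values for all rows.

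At the count limit, INE-1{}2083 entered with a sum of 60 and INE-1{}3980 stayed out with 59. INE-1{}2083 had 9, 13 and 9 counts in the dYEATS2-IR libraries and 7, 0 and 0 in the dENL/AF9-IR libraries, against 0, 3 and 13 counts in the NTC IR-2 libraries and 2, 0 and 4 counts in the NTC IR-1 libraries. INE-1{}3980 had between 2 and 11 counts in each of the 12 libraries.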

How the data were processed

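Poly(A) RNA of male heads was sequenced in 12 libraries, 3 for each of 4 hairpin groups. The authors deposited raw counts per gene and per transposable element insertion, and a normalized table whose values are a signal scaled per library, per the file headers and the labels. The submitters' processing notes name FastQC 0.12.0, Trim Galore 0.6.5, HISAT2, SAMtools, UMI-tools, Picard and DESeq2, and the builds BDGP6 and dm6. The counting program, its use of strand and its treatment of reads that match several copies are not given in the sources used here. Copies of INE-1 resemble each other, so reads may be split or lost among them.

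The normalized table was used to compare column names alone. Each of its columns was a constant multiple of a raw column of another group in 100% of rows and of the raw column of its own name in 0.0125% to 3.33%. Group names follow the raw count table.

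Counts were tested with edgeR 4.0.16 (R 4.3.3) by quasi-likelihood with TMM scaling on 13110 rows with a count sum of at least 60, all 12 libraries in 1 fit with 8 residual degrees of freedom, Benjamini-Hochberg over all rows, and calls at an adjusted p below 0.05. The fit was tested on simulated data. CPM were counts scaled to the TMM-corrected library total, and standard errors were derived from the F statistic. All 2235 INE-1 rows were placed by symbol on the BDGP6.54 annotation (Ensembl). DESeq2 1.42.0, other scalings, filters, fits, controls and omitted libraries were tried as alternatives. Members, lists and tests were chosen with earlier results of these data known. Named rows were the 10 most abundant, the called rows with the largest changes (5 in each direction), the 10 smallest p across the 4 groups, the 3 smallest p where none was called, the longest and the shortest. The labels do not say whether libraries were raised separately, so p-values measure the spread between libraries. Bounds set by 3 counts cover counting error only.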

Additional observations from a re-analysis of the deposited data

How the results depend on the processing

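For dYEATS2-IR against NTC IR-1, the 0 INE-1 calls became 1 with a count sum of at least 120, 1 in a fit of the 6 libraries alone, 3 with DESeq2 and 7 with NTC IR-2 as the control, and 0 to 4 when 1 library was left out. For dENL/AF9-IR against NTC IR-2 they became 20 with NTC IR-1 as the control and stayed 0 when 1 library was left out. For the difference between both effects, DESeq2 gave 1 and leaving out a library 0 to 1. The 14 calls of NTC IR-2 against NTC IR-1 became 7 with no filter, 2 in a fit of the 6 libraries, 7 under the group names of the normalized table (1 higher, 6 lower) and 3 to 26 when 1 library was left out, with the fewest without library 1 and the most without library 3 of NTC IR-1; DESeq2 called 19, of which 13 were among the 14. The 11 calls across the 4 groups became 7 with no filter, 26 with the DESeq2 likelihood ratio test and 5 to 20 when 1 library was left out, with the most without library 1 of NTC IR-2. The cause was not tested. The share of all rows called was computed for the main fit and for the exchanged controls alone. The other counts therefore have no such share to be read against.

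With the replicate number as a block, 8 of the 14 calls between the controls remained and no other call was made in either knockdown comparison; same-numbered libraries did not deviate together (correlations of -0.209 to 0.016), so the numbers were not taken as pairs.

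Without the 10 most abundant rows, the mean summed level was 135 CPM in dYEATS2-IR, 175 CPM in dENL/AF9-IR, 169 CPM in NTC IR-2 and 131 CPM in NTC IR-1. Over tested rows it was 295 CPM in dENL/AF9-IR. With raw totals the means were 259, 301, 285 and 220 CPM in the same order of groups. The dYEATS2-IR libraries (229.0, 284.5 and 263.1 CPM) were then all above those of NTC IR-1 (218.7, 217.0 and 225.6 CPM). Library 1 of NTC IR-2 was then the lowest, at 203.3 CPM. The median log2 fold change between the controls ran between 0.22 and 0.54 when 1 library was left out, was 0 with no filter and -0.34 under the group names of the normalized table.

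Under the group names of the normalized table, which set the dYEATS2-IR libraries against those of NTC IR-2 as the controls, 13 of the 14 called log2 fold changes turned: INE-1{}5364 to -0.92, INE-1{}5345 to -0.61, INE-1{}4141 to -0.71, INE-1{}3388 to -0.44, INE-1{}3385 to -0.35, INE-1{}3470 to -0.41, INE-1{}3643 to 2.27 between the controls (with -0.15 in dENL/AF9-IR), INE-1{}3647 to -1.43, INE-1{}3199 to -1.55, INE-1{}5440 to -0.81, INE-1{}4142 to -0.7, INE-1{}2915 to -1.02 and INE-1{}5314 to -0.88. In dENL/AF9-IR, INE-1{}4495 turned to -0.34. The difference between both effects turned to 0.42 for INE-1{}3410 and -0.02 for INE-1{}5440. With NTC IR-1 as its control, INE-1{}3643 in dENL/AF9-IR turned to -1.28. Depth limits these results: between the controls, the median standard error of an INE-1 row was 0.544, above the median host log2 fold change of 0.36.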

Other observations

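Some insertions had no reads in some libraries and many in others, of the same group or of another. Of the 226 tested INE-1 rows, 17 (7.52%) were at 0 in at least 1 library and had 20 or more counts in another, a limit chosen after the values were seen; 852 of 11745 rows that are no transposable element insertion (7.25%) did the same. Among rows with a count sum of 60 to 299, 17 of 151 INE-1 rows (11.3%) and 707 of 1710 rows that are no insertion (41.3%) did. Other transposable element insertions did so in 41 of 532 cases in that range (7.71%) and in 56 of 1139 over all tested (4.92%). INE-1{}3239, in an intron of nrm on the other strand, had 47 counts in library 3 of dENL/AF9-IR, 47 in library 3 of NTC IR-2 and 39 in library 3 of NTC IR-1, and 0 in the remaining 9 libraries. INE-1{}5912, which overlaps an exon of lncRNA:CR44024 on the other strand, had 26, 0 and 27 counts in the dYEATS2-IR libraries and 0 in all dENL/AF9-IR libraries. The NTC IR-2 libraries had 61, 0 and 0 counts of it and the NTC IR-1 libraries 29, 0 and 45 counts. INE-1{}5916, in an intron of CaMKI on the other strand, had 0, 0 and 14 counts in the dYEATS2-IR libraries and 0, 20 and 30 in the dENL/AF9-IR libraries. The NTC IR-2 libraries had none and the NTC IR-1 libraries 0, 23 and 0 counts. Of the 17 rows, 5 lay in introns of a gene on the other strand, a class with 13 tested rows.

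A further 28 INE-1 rows held exactly 1 count in every one of the 12 libraries, as did 127 rows of the whole table.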
